A study of Homo sapiens with 6 samples.

Results

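The expression of 9 genes of MHC class II presentation was followed in the breast cancer cell line MDA-MB-231, which lacks hormone receptors and HER2 amplification, and in 2 derivatives resistant to rapamycin analogs. The 9 members are CIITA, CD74, HLA-DRA, HLA-DRB1, HLA-DPA1, HLA-DPB1, HLA-DMA, HLA-DMB and HLA-DQB1. They were taken by symbol from a table of 69292 Ensembl gene IDs, and each symbol matched 1 ID. The members were chosen by their counts in these same libraries, with the differences between the 3 groups already known, so their own values are given as a description, and the calls counted for them further on are not read as evidence.

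The study measured RNA in 3 groups of 2 libraries to ask which transcriptional changes go with acquired resistance to mTOR inhibitors. The everolimus-resistant derivative, DREVE, was kept in 20 µM everolimus, and the ridaforolimus-resistant derivative, DRRIDA, in 30 µM ridaforolimus, both for several months. The parental cells had neither drug. Their treatment label reads DMSO, whereas no drug is given for them in the protocol. All 3 groups were grown in the same serum-containing medium. Each resistant line is a single derivative still under its drug, so resistance, drug exposure and drift of that derivative cannot be told apart. The labels do not say that the 2 libraries of a group came from separate cultures, so the spread between them may be technical.

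MHC class II molecules are heterodimers of an alpha and a beta chain that present peptides from the endosomal route to CD4+ T cells. They are made constitutively by B cells, dendritic cells and macrophages, and many other cells, tumour cells among them, make them after exposure to interferon-gamma. CIITA is a coactivator that does not bind DNA itself. It docks onto a complex of RFX, CREB and NF-Y factors on the X and Y boxes of class II promoters and is the main switch of the class II genes, of the invariant chain gene CD74 and of the HLA-DM genes. The invariant chain chaperones new class II dimers and fills their groove, and HLA-DM exchanges its remnant for antigenic peptide.

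The promoter sequences of these genes can be compared ahead of any measurement. Windows of 250 bases before to 50 bases after the start site were found in RefSeq (GRCh38.p14) for 7 of the 9 members, all but CIITA and HLA-DRA. They were searched on both strands for an X-like motif, AGNNAC followed directly by NGATG (N is any base), and for CCAAT, the letters of the Y box, which reads ATTGG on the other strand. The 2 motifs share no letters in these windows. The lines below give bases 130 to 18 before the start site, 5′ to 3′ on the gene's strand, with both motifs in capitals. The first 4 members are those with an X-like match, and CD74 is shown because the results turn on it.
HLA-DRB1, chr6:32589866-32589978, minus strand: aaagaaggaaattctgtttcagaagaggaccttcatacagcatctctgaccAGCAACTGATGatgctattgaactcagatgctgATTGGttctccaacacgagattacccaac
HLA-DQB1, chr6:32666675-32666787, minus strand: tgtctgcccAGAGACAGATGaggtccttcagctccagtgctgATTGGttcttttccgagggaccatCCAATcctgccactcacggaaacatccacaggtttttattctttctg
HLA-DMA, chr6:32953115-32953227, minus strand: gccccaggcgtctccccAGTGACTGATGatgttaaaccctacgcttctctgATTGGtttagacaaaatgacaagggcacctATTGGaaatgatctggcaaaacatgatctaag
HLA-DMB, chr6:32941046-32941158, minus strand: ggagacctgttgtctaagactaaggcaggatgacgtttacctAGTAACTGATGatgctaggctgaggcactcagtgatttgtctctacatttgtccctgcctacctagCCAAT
CD74, chr5:150412928-150413040, minus strand: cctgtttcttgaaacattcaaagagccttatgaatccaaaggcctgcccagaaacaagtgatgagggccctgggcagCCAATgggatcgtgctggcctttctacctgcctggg

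The X-like letters occurred in 0.817% of all 35116 promoter windows of the same length, CCAAT on either strand in 34.6% and both together in 0.288%. In HLA-DRB1 and HLA-DQB1 22 bases lay between the X-like match and the next ATTGG, and in HLA-DMA 23 bases did. HLA-DMB had its CCAAT 55 bases further on and in the other orientation. CD74 and HLA-DPB1 had CCAAT and no X-like match, and HLA-DPA1 had neither in its windows. A match is only a run of letters in the reference genome, whose HLA alleles need not be those of this cell line. Both motifs are single fixed patterns, so a window without an X-like match may still hold an X box. Likewise, a Y box with other letters would be missed in any window, that of HLA-DMB included.

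Depth was similar in all groups, at 13134567 to 15556246 counts per library. The class II genes were a very small part of it: CD74 and the 7 HLA genes together had 275 and 147 counts in the everolimus libraries, 101 and 153 in the ridaforolimus libraries and 402 and 301 in the parental libraries. As CPM, that is counts scaled to a common library size with TMM factors, it was 19.9 and 9.72 CPM in everolimus, 7.70 and 11.2 CPM in ridaforolimus and 30.7 and 21.2 CPM in parental libraries. Both ridaforolimus libraries and everolimus replicate 2 were lowest, and every resistant library was below both parental ones. In bulk RNA, fewer cells that express a gene and less RNA in each cell cannot be told apart.

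CIITA, the coactivator (ENSG00000179583; chromosome 16, 10866222 to 10943021, plus strand), had 231 and 140 counts in everolimus libraries, 64 and 61 in ridaforolimus libraries and 198 and 192 in parental libraries. Its level was 12.99 ± 5.29 CPM in the everolimus line, 4.67 ± 0.298 CPM in the ridaforolimus line and 14.3 ± 1.13 CPM in parental cells (SD, n = 2 each). The ridaforolimus libraries lay below all 4 others, while the everolimus libraries lay on either side of the parental ones. The log2 fold change over parental was -0.14 ± 0.31 in the everolimus line and -1.62 ± 0.33 in the ridaforolimus line. The ± of log2 fold changes is a standard error derived from the F statistic of the edgeR fit. The direct difference, ridaforolimus over everolimus, was -1.47 ± 0.33. The everolimus value was 0.22 without everolimus replicate 2 and -0.62 without everolimus replicate 1, and the direct difference was -0.997 without everolimus replicate 1. Of CIITA's exon bases 11.6% overlap those of DEXI on the other strand, and DEXI stood at 0.49 and 0.01 in the same comparisons with parental cells. On its own strand, 11.5% of CIITA's exon bases overlap an unnamed gene with 0 counts.

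CD74, the invariant chain (ENSG00000019582; chromosome 5, 150401637 to 150412929, minus strand), had 115 and 36 counts in everolimus libraries, 36 and 31 in ridaforolimus libraries and 183 and 112 in parental libraries. In CPM this was 5.36 ± 4.21 in the everolimus line, 2.504 ± 0.339 in the ridaforolimus line and 10.9 ± 4.31 in parental cells (SD, n = 2 each). Everolimus replicate 1 stood with parental replicate 2, at 8.33 and 7.89 CPM, and everolimus replicate 2 with the ridaforolimus libraries, at 2.38 CPM against 2.74 and 2.26 CPM. The log2 fold change over parental was -1.03 ± 0.54 in the everolimus line and -2.12 ± 0.58 in the ridaforolimus line. The lines differed by -1.09 ± 0.58, a value that became 0.06 without everolimus replicate 1 and -1.73 without everolimus replicate 2. Without everolimus replicate 1 the everolimus value over parental was -2.19, without everolimus replicate 2 it was -0.40, and without parental replicate 1 it was -0.57.

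HLA-DRA, the alpha chain of HLA-DR (ENSG00000204287; chromosome 6, 32439842 to 32445046, plus strand), had 43 and 25 counts in everolimus libraries, 7 and 11 in ridaforolimus libraries and 60 and 49 in parental libraries. The 3 groups did not overlap: 2.38 ± 1.03 CPM in the everolimus line and 0.669 ± 0.191 CPM in the ridaforolimus line stood against 4.02 ± 0.801 CPM in parental cells (SD, n = 2 each). The log2 fold changes over parental were -0.75 ± 0.42 in the everolimus and -2.57 ± 0.48 in the ridaforolimus line, with a direct difference of -1.81 ± 0.49. The everolimus value was -1.27 without everolimus replicate 1 and -0.37 without everolimus replicate 2.

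HLA-DRB1, the beta chain that pairs with HLA-DRA (ENSG00000196126; chromosome 6, 32578769 to 32589848, minus strand), had 19 and 7 counts in everolimus libraries, 3 and 4 in ridaforolimus libraries and 15 and 15 in parental libraries. Per kilobase of exon its level was 0.748 CPM in the everolimus line, 0.212 CPM in the ridaforolimus line and 0.896 CPM in parental cells, below that of HLA-DRA at 1.86, 0.522 and 3.14 CPM per kilobase in the same order of groups. The everolimus libraries lay on either side of the parental ones, and both ridaforolimus libraries lay below all others. Over parental cells HLA-DRB1 stood at -0.27 ± 0.59 (log2) in everolimus and -2.04 ± 0.70 in ridaforolimus cells, and the lines differed by -1.77 ± 0.71. Without everolimus replicate 2 the everolimus value was 0.31, and without everolimus replicate 1 it was -1.23. HLA-DR beta genes are near-identical copies, so the split of reads between HLA-DRB1 and HLA-DRB5, which had 1 to 5 counts per library, is uncertain.

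**Figure D1:**
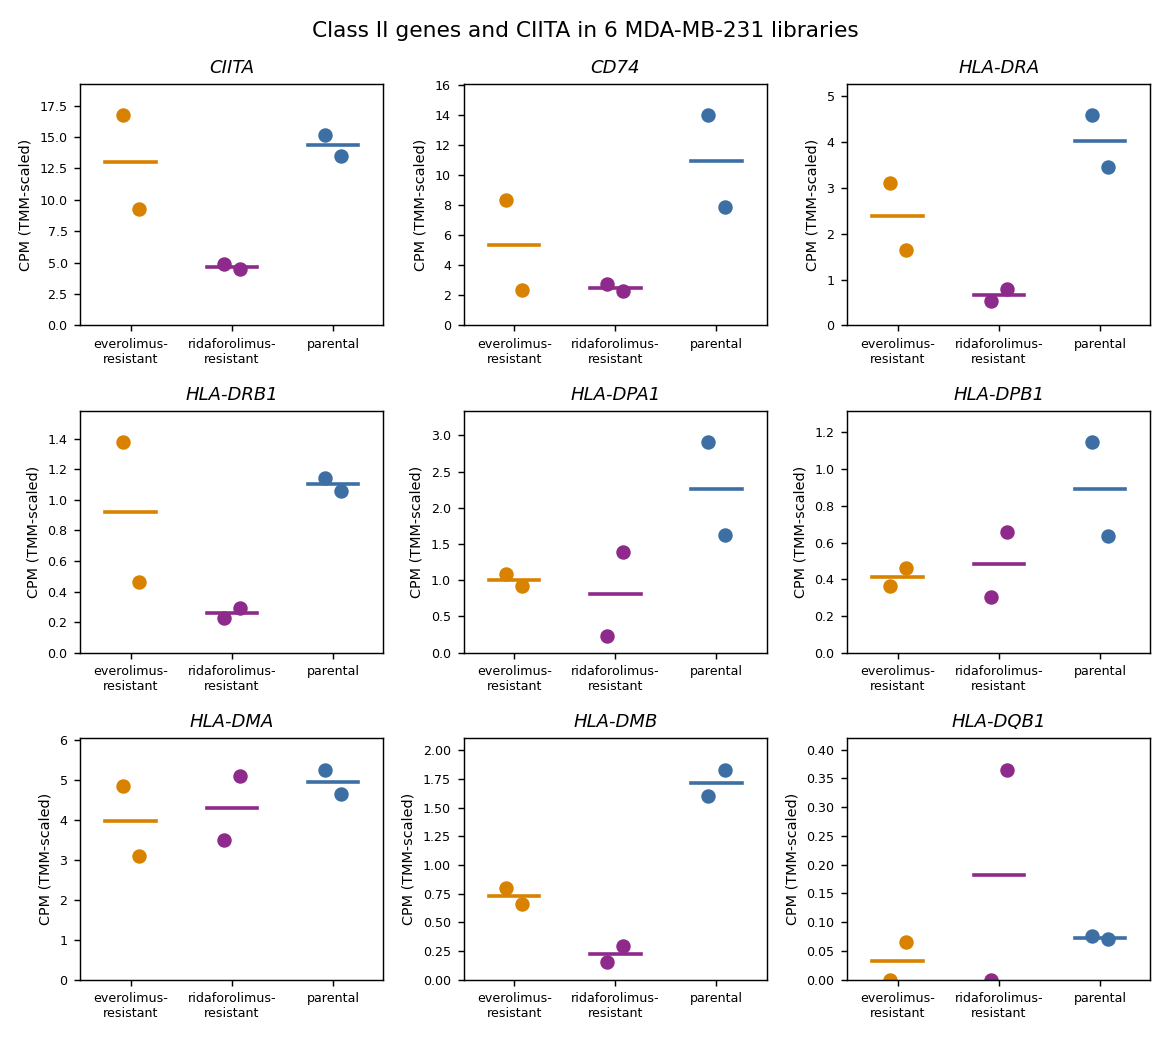
Level of each of the 9 genes in CPM (TMM-scaled, linear axes that start at 0 and differ between panels), with 1 point per library and a bar at the mean of the 2 libraries of everolimus-resistant, ridaforolimus-resistant and parental cells. CIITA, HLA-DRA, HLA-DRB1 and HLA-DMB are lowest in both ridaforolimus libraries, at 4.46 to 4.88 CPM for CIITA, while HLA-DMA has overlapping groups.

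HLA-DM, the peptide editor, has 2 chains. HLA-DMB, the beta chain (ENSG00000242574; chromosome 6, 32934629 to 32941070, minus strand), had 11 and 10 counts in everolimus libraries, 2 and 4 in ridaforolimus libraries and 21 and 26 in parental libraries. HLA-DMA, the alpha chain (ENSG00000204257; chromosome 6, 32948613 to 32969094, minus strand), had 67 and 47 counts in everolimus libraries, 46 and 70 in ridaforolimus libraries and 69 and 66 in parental libraries. The 3 groups were separate for HLA-DMB, while for HLA-DMA they overlapped in every comparison.

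In CPM HLA-DMB stood at 0.729 ± 0.0961 in the everolimus line, 0.222 ± 0.0988 in the ridaforolimus line and 1.72 ± 0.160 in parental cells, and HLA-DMA at 3.98 ± 1.24, 4.31 ± 1.14 and 4.96 ± 0.440 in the same order (SD, n = 2 each). The log2 fold changes of HLA-DMB over parental were -1.23 ± 0.47 and -2.89 ± 0.56 in the everolimus and ridaforolimus lines, and those of HLA-DMA were -0.32 ± 0.36 and -0.20 ± 0.36. The ratio of HLA-DMB to HLA-DMA counts was 0.164 and 0.213 in everolimus, 0.0435 and 0.0571 in ridaforolimus and 0.304 and 0.394 in parental libraries, so the ratio separated the groups. No test was made of this difference between the chains. The ridaforolimus count of HLA-DMB rests on 6 reads in both libraries together (95% Poisson interval 2.20 to 13.1, counting error only), against 47 in parental cells (34.5 to 62.5). Leaving out 1 library moved the HLA-DMA values: the everolimus one was -0.67 without everolimus replicate 1 and -0.04 without everolimus replicate 2, and the ridaforolimus one 0.03 without ridaforolimus replicate 1, -0.49 without ridaforolimus replicate 2 and -0.12 without parental replicate 1. HLA-DMA shares 55 exon bases with BRD2, a gene with 24572 counts in the 6 libraries, on the other strand. On the same strand, 9.41% of HLA-DMB's and 6.87% of HLA-DMA's exon bases overlap an unnamed gene with 0 counts. The part of these overlaps in the ratio was not tested.

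HLA-DP had few counts. HLA-DPA1, its alpha chain (ENSG00000231389; chromosome 6, 33064569 to 33080775, minus strand), had 15 and 14 counts in everolimus libraries, 3 and 19 in ridaforolimus libraries and 38 and 23 in parental libraries. Both resistant lines lay below parental cells, but the 2 ridaforolimus libraries lay on either side of the everolimus ones. Its log2 fold change was -1.16 ± 0.66 in the everolimus and -1.46 ± 0.68 in the ridaforolimus line. The everolimus value was -0.69 without parental replicate 1. The ridaforolimus value was -3.24 without ridaforolimus replicate 2 and -0.70 without ridaforolimus replicate 1. Against the everolimus line it was -0.30 ± 0.73, and 0.46 without ridaforolimus replicate 1 or -2.07 without ridaforolimus replicate 2.

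HLA-DPB1, the beta chain of HLA-DP (ENSG00000223865; chromosome 6, 33075926 to 33087201, plus strand), had 5 and 7 counts in everolimus libraries, 4 and 9 in ridaforolimus libraries and 15 and 9 in parental libraries. HLA-DQB1, the beta chain of HLA-DQ (ENSG00000179344; chromosome 6, 32659467 to 32668383, minus strand), had 0 and 1 counts in everolimus libraries, 0 and 5 in ridaforolimus libraries and 1 and 1 in parental libraries. Neither passed the filter on low counts, and no fold change is given for them. Of 8 other class II chains looked up, 6 were among the gene IDs counted, HLA-DRB5 included, and the rest have no values here. HLA-DQA2 and HLA-DQB2 were at 0 in all libraries, HLA-DQA1 at 0 to 2 and HLA-DOA at 0 to 3 counts. HLA-DOB, the beta chain of the HLA-DM inhibitor HLA-DO, had 24 and 11 counts in everolimus, 8 and 7 in ridaforolimus and 5 and 17 in parental libraries and was tested. Its log2 fold change over parental was 0.61 ± 0.66 in the everolimus line, above 0 unlike the 7 members, and -0.50 ± 0.72 in the ridaforolimus line, with a direct difference of -1.12 ± 0.69 (adjusted p = 0.833, 0.794 and 0.519, edgeR).

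Across the 7 members that passed the filter, all 7 estimates were below 0 in both resistant lines, beside 47.6% of all genes in the everolimus and 48.7% in the ridaforolimus line. The filter asks for about 0.742 CPM in 2 libraries. HLA-DRB1 and HLA-DMB reached that level in no ridaforolimus library, and HLA-DRA and HLA-DPA1 in only 1. These genes owe their place to the other groups, so the count of 7 supports nothing. The median was -0.75 in the everolimus line, where the median of all 21223 genes tested was 0.02, and -2.04 in the ridaforolimus line, where that of all genes was 0.01. The 2 comparisons share their parental libraries. The median of the direct difference was -1.47, beside -0.02 over all genes, with 6 of 7 below 0, beside 51.7% of all genes, and HLA-DMA above it at 0.12. The HLA-DMA difference was -0.17 without everolimus replicate 2 and -0.16 without ridaforolimus replicate 2, and the HLA-DRB1 difference was -0.82 without everolimus replicate 1.

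Groups did not overlap, with the resistant line lower, for 3 of the 7 in the everolimus line, beside 20.5% of all genes tested, and for 6 of the 7 in the ridaforolimus line, beside 24.3%. The ridaforolimus libraries lay below the everolimus libraries for 4 of the 7, beside 20.4%. By the quasi-likelihood test of edgeR, 0 members had an adjusted p under 0.05 in any of the 3 comparisons, a rule that 0.00471%, 0.32% and 0.744% of all genes met in the everolimus, ridaforolimus and direct comparisons. By direction, 0.193% of all genes were called higher and 0.127% lower in the ridaforolimus line over parental, and 0.471% higher and 0.273% lower in the direct comparison. An unadjusted p under 0.05 was given to 1, 5 and 4 of the 7, beside 8.79%, 14.5% and 14.1% of all genes. DESeq2 called 0, 4 (CIITA, CD74, HLA-DRA and HLA-DMB) and 1 (CIITA), beside 0.707%, 2.7% and 3.1% of all genes, and limma-voom called 0 in each, beside 0.00471%, 0.339% and 0.532%. DESeq2 gave no adjusted p to HLA-DRB1 and HLA-DMB in the everolimus and to HLA-DRB1 in the ridaforolimus comparison. Since the members were chosen with such results known, these counts are no evidence about the set.

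**Figure D2:**
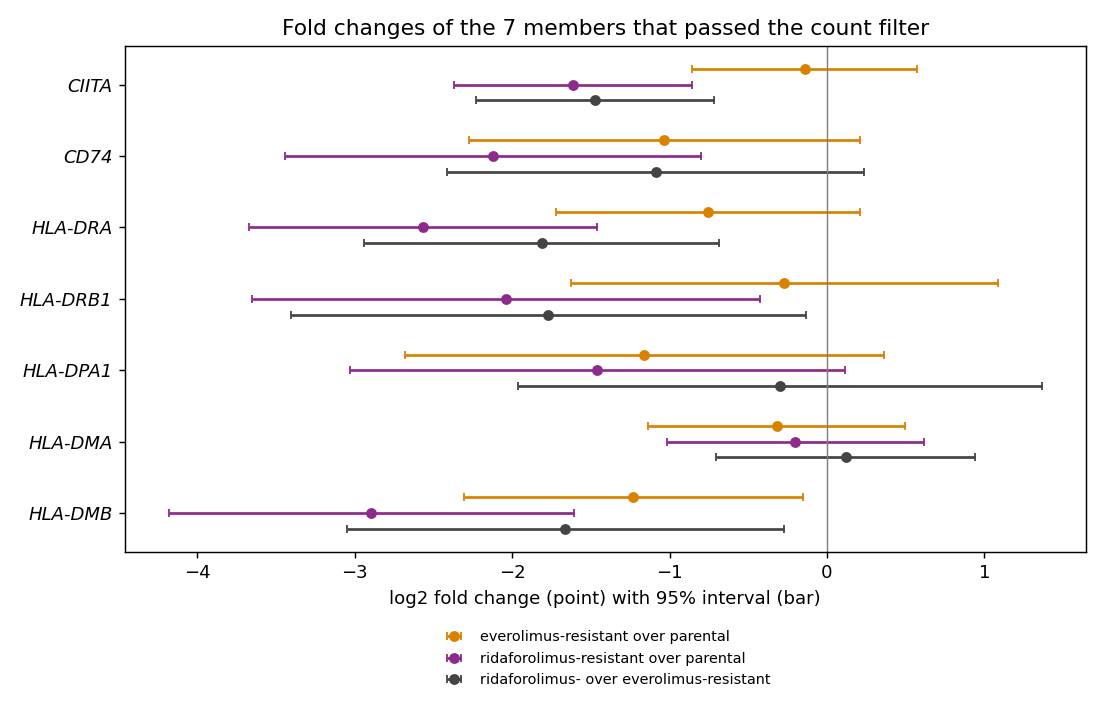
Log2 fold changes of the 7 members tested, for everolimus-resistant over parental, ridaforolimus-resistant over parental and ridaforolimus- over everolimus-resistant cells. Bars are 95% intervals derived from the edgeR fit. The ridaforolimus estimates over parental run from -2.89 for HLA-DMB to -0.20 for HLA-DMA, and the everolimus estimates from -1.23 to -0.14.

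The genes known to act on class II promoters with CIITA did not pass the threshold in any comparison. RFX5, the DNA-binding subunit of the RFX complex that recognises the X box, had 45.1 and 64.3 CPM in everolimus, 34.5 and 38.6 CPM in ridaforolimus and 28.3 and 36.6 CPM in parental libraries, with log2 fold changes over parental of 0.75 ± 0.24 and 0.17 ± 0.24 (adjusted p = 0.496 and 0.791, edgeR). RFXANK, its ankyrin-repeat subunit, had 28.3 and 35.8 CPM in everolimus, 22.5 and 21.0 CPM in ridaforolimus and 34.9 and 38.7 CPM in parental libraries. Both ridaforolimus libraries were lowest for RFXANK, with a log2 fold change of -0.76 ± 0.21 over parental (adjusted p = 0.175, edgeR). RFXAP, the third subunit, stood at -0.04 and -0.11 in the everolimus and ridaforolimus lines, and the Y box factors NFYA, NFYB and NFYC lay between 0.02 and 0.05 in the everolimus line and between -0.41 and -0.14 in the ridaforolimus line. Over the 12 promoter factors and cofactors the median was 0.02 and -0.19, beside 0.02 and 0.01 over all genes.

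Of the 8 genes on the interferon-gamma route to CIITA, 0 passed. IRF1, a transcription factor of the interferon-inducible CIITA promoter, had 86.1 and 48.8 CPM in everolimus, 20.0 and 28.7 CPM in ridaforolimus and 34.8 and 21.8 CPM in parental libraries. It was highest in both everolimus libraries, with a log2 fold change over parental of 1.25 ± 0.34 (adjusted p = 0.430, edgeR), while CIITA stood at -0.14 in the same libraries. In the ridaforolimus line IRF1 stood at -0.22 ± 0.34 (adjusted p = 0.817, edgeR). The receptor chains IFNGR1 and IFNGR2 stood at -0.21 and -0.19 in the everolimus and at -0.52 and -0.74 in the ridaforolimus line, the receptor-bound kinase JAK1 at -0.25 and -0.24, and its partner JAK2 at -0.02 and -0.20.

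Among 8 repressors and chromatin silencers linked to CIITA, 7 were tested and 0 passed. PRDM1, which represses CIITA in plasma cells, stood at -0.62 in the everolimus and 0.00 in the ridaforolimus line, the histone methyltransferase EZH2 at 0.51 and -0.18, and the DNA methyltransferase DNMT1 at -0.06 and -0.63. SOCS1, an inhibitor of JAK signalling, had 2 to 11 counts per library and was not tested.

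Genes of the endosomal route after CIITA did not pass either, with 0 of 7 tested in each comparison. The proteases CTSL, CTSB and LGMN stood at -0.89, -0.14 and -0.34 in the everolimus and at -0.12, 0.41 and -0.39 in the ridaforolimus line. CTSD, a lysosomal aspartic protease, had 494 and 229 CPM in everolimus, 112 and 162 CPM in ridaforolimus and 217 and 172 CPM in parental libraries, with a direct difference between the lines of -1.40 ± 0.36 (adjusted p = 0.143, edgeR). SPPL2A, which cleaves the last invariant chain fragment, and the ubiquitin ligases MARCHF1 and MARCHF8, of a kind that removes class II from the cell surface, lay between -0.28 and 0.20 in both lines. CTSS, the main invariant chain protease of professional presenting cells, had 4 to 14 counts per library, and IFI30, the lysosomal thiol reductase, 2 to 7.

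CD74 is also a receptor for the cytokine MIF, with CD44 as its signalling partner. CD44 stood at 0.43 ± 0.31 in the everolimus and 1.24 ± 0.31 in the ridaforolimus line (adjusted p = 0.738 and 0.155, edgeR; DESeq2 called it in the ridaforolimus line), on the other side of 0 from CD74 in both. MIF had 1 count in the 6 libraries together, and 61.9% of its exon bases overlap MIF-AS1 on the other strand, so its level is not read here.

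**Figure D3:**
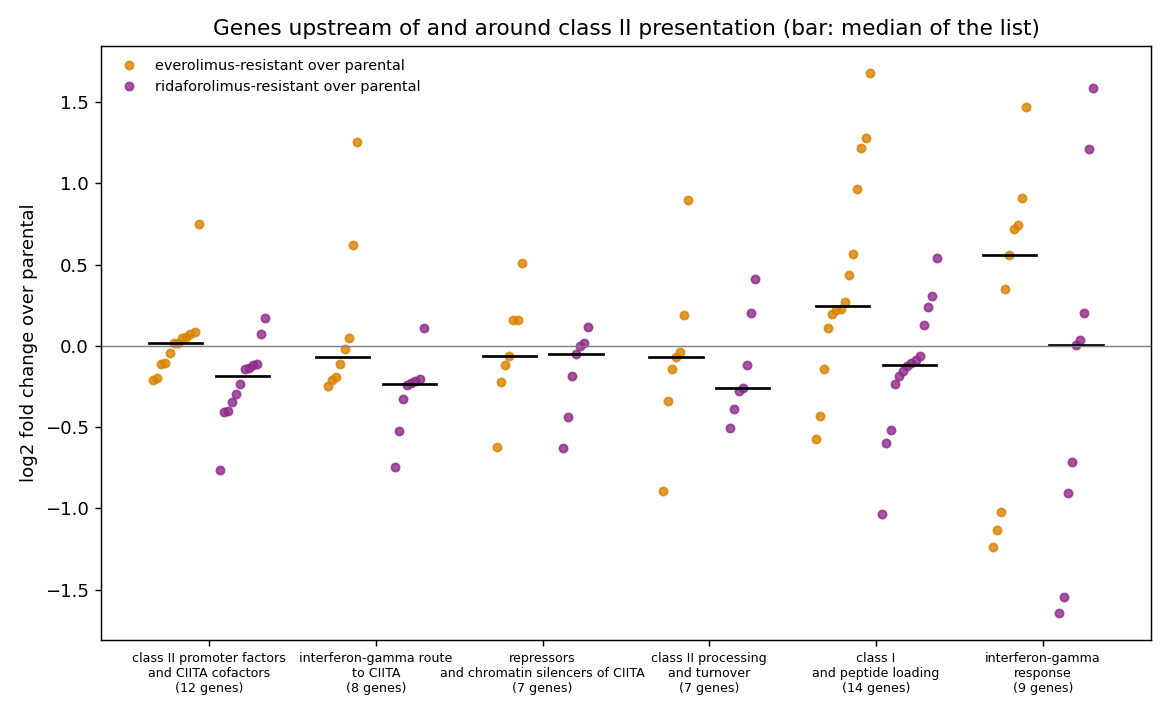
Log2 fold change over parental cells of the tested genes in 6 lists around class II presentation, with 1 point per gene for the everolimus-resistant line and the ridaforolimus-resistant line and a black bar at the median of the list. The 9 interferon-gamma response genes tested have a median of 0.56 in the everolimus line, where they run from -1.24 to 1.47, and 0.01 in the ridaforolimus line. No gene shown passed the adjusted threshold.

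Class I presentation is also interferon-inducible, and 0 of its 14 genes passed. Its coactivator NLRC5, a relative of CIITA, had 73.0 and 39.3 CPM in everolimus, 15.4 and 39.0 CPM in ridaforolimus and 22.5 and 23.7 CPM in parental libraries, with log2 fold changes of 1.28 ± 0.44 and 0.24 ± 0.43 over parental (adjusted p = 0.507 and 0.844, edgeR). The immunoproteasome subunits PSMB8 and PSMB9, encoded within the class II region, stood at 0.97 and 1.68 in the everolimus and at -1.03 and 0.13 in the ridaforolimus line. The class I heavy chains HLA-B and HLA-C stood at 0.22 and 0.11 in the everolimus and at -0.06 and -0.19 in the ridaforolimus line. The interferon-gamma response gene GBP1 stood at 1.47 in the everolimus line and 0.03 in the ridaforolimus line, and CD274, which encodes the T cell inhibitory ligand PD-L1, at -1.13 and -0.71. The medians of these 2 lists were 0.25 for class I and 0.56 for the interferon-gamma response in the everolimus line, and -0.11 and 0.01 in the ridaforolimus line. The 9 interferon-gamma response genes tested went both ways, from -1.24 for ICAM1 to 1.47 for GBP1 in the everolimus line. In the ridaforolimus line they ran from -1.64 ± 0.73 for APOL1 to 1.59 ± 0.97 for GBP2. APOL1 had 4 and 8 counts in the ridaforolimus libraries. GBP2 had 9.53 and 76.2 CPM in them, on either side of the parental libraries at 17.0 and 11.6 CPM.

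Counted over the 8 lists of promoter factors, interferon route, repressors, processing, invariant chain partners, remaining class II chains, class I and interferon response, 61 genes were tested. edgeR called 0 of them in each comparison, beside the 0.00471%, 0.32% and 0.744% of all genes given above. An unadjusted p under 0.05 was given to 11, 5 and 12 of the 61 in the everolimus, ridaforolimus and direct comparisons, beside 8.79%, 14.5% and 14.1% of all genes. DESeq2 called 0, 1 (CD44) and 5 (IRF1, CTSD, CXCR4, PSMB8 and GBP1, each lower in the ridaforolimus than in the everolimus line), beside 0.707%, 2.7% and 3.1%, and limma-voom called 0 in each.

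The neighbours of CIITA, CD74 and HLA-DRA on the chromosome were also followed. In ridaforolimus cells over parental, 5 of 9 genes tested within 500 kb of CIITA were below 0; their median was -0.09 and a range of -0.59 to 0.84, against -1.62 for CIITA. Of 15 within 500 kb of CD74, 12 were below 0, with a median of -0.17 and a range of -0.89 to 0.61, against -2.12 for CD74. Of 26 around HLA-DRA outside the class II genes, 23 were below 0, with a median of -0.23 and a range of -1.03 to 0.36, against -2.57 for HLA-DRA. Of all genes tested over parental in the ridaforolimus line, 48.7% were below 0, and the median of all was 0.01. CIITA, CD74 and HLA-DRA were chosen with their values known, and their neighbours were not, so their order is only a description. In the ridaforolimus line over parental, the values of CIITA, CD74 and HLA-DRA lay below those of all their tested neighbours. That was not so in the others: in the everolimus line CLEC16A, EMP2 and an unnamed gene lay below CIITA, and TNXB, TSBP1 and TSBP1-AS1 below HLA-DRA, while in the direct comparison PSMB8 lay below HLA-DRA, and SLC26A2, PDE6A and an unnamed gene below CD74. In each line 0 neighbours passed over parental cells. In the direct comparison 1 of these neighbours passed, SLC26A2, a sulfate transporter near CD74 (-1.25, adjusted p = 0.0304, edgeR).

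The identity of the cells was checked with marker genes. The 6 mesenchymal breast cancer markers summed to 4604 and 5347 CPM in everolimus, 3744 and 7605 CPM in ridaforolimus and 3092 and 2979 CPM in parental libraries. FN1 and AXL were most of that sum, with FN1 at 1205 and 5286 CPM in the ridaforolimus libraries, while SPARC had 1 to 14 counts per library. The 5 luminal markers summed to 51.7 and 73.3 CPM in everolimus, 59.7 and 66.6 CPM in ridaforolimus and 65.7 and 65.4 CPM in parental libraries. Most of the luminal sum was ERBB2, at 44.3 to 62.9 CPM over the 6 libraries, while FOXA1 had 43 to 104, GATA3 12 to 89, ESR1 6 to 13 and PGR 0 to 2 counts. Of 5 B cell markers 0 passed the filter, with MS4A1 at 0 throughout and a summed level of 0.217 to 0.331 CPM in everolimus, 0.305 to 0.511 CPM in ridaforolimus and 0.563 to 0.688 CPM in parental libraries. Of 6 monocyte and macrophage markers 3 passed the filter, CD163 was at 0, and their sum was 4.56 to 6.74 CPM in everolimus, 4.12 to 4.24 CPM in ridaforolimus and 3.94 to 7.26 CPM in parental libraries.

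Of 6 dendritic cell markers CD1C, CLEC9A and CLEC4C were at 0, and 2 were tested. Their sum was 0.859 to 2.10 CPM in everolimus, 5.41 to 14.8 CPM in ridaforolimus and 2.11 to 3.59 CPM in parental libraries, nearly all of the ridaforolimus sum from ITGAX, the integrin chain CD11c. The part of these markers in the class II values was not tested. The pan-leukocyte gene PTPRC had 0 to 7 counts per library and CD3E and CD2 none. LCP1, an actin-bundling protein of leukocytes that many tumour lines also express, made up almost all of the summed leukocyte list, at 23.0 to 37.6 CPM in everolimus, 109 to 121 CPM in ridaforolimus and 52.6 to 66.7 CPM in parental libraries.

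Among 15616 candidate genes that averaged 1 CPM or more, the profiles nearest to CD74 and to HLA-DRA were looked up by the root mean square difference of log2 CPM (prior count of 2) centred on the 6 libraries. Among the 5 nearest to HLA-DRA were NEDD9 (0.23), TIMP4 (0.24), MXRA8 (0.25) and ACSL1 (0.30), where the median over all candidates was 1.06. MXRA8 had 17.5 and 16.7 CPM in everolimus, 5.18 and 7.01 CPM in ridaforolimus and 31.3 and 29.8 CPM in parental libraries, with 3 separate groups as for HLA-DRA. Nearest to CD74 were ANGPTL2 (0.32), THSD4 (0.33), PNPLA1 (0.34), EPAS1 (0.35) and IZUMO1 (0.36), with a median of 1.03 over all candidates. Within the pathway, the distance from HLA-DRA was 0.29 for HLA-DMB, 0.35 for HLA-DRB1, 0.38 for CIITA, 0.48 for CD74, 0.65 for HLA-DPA1 and 0.93 for HLA-DMA. HLA-DMB and HLA-DRB1 averaged less than the 1 CPM asked of the candidates. At their 2 to 26 counts per library, the prior count weighs on their profiles. With 6 libraries in 3 groups, such likeness is a description of these libraries.

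**Figure D4:**
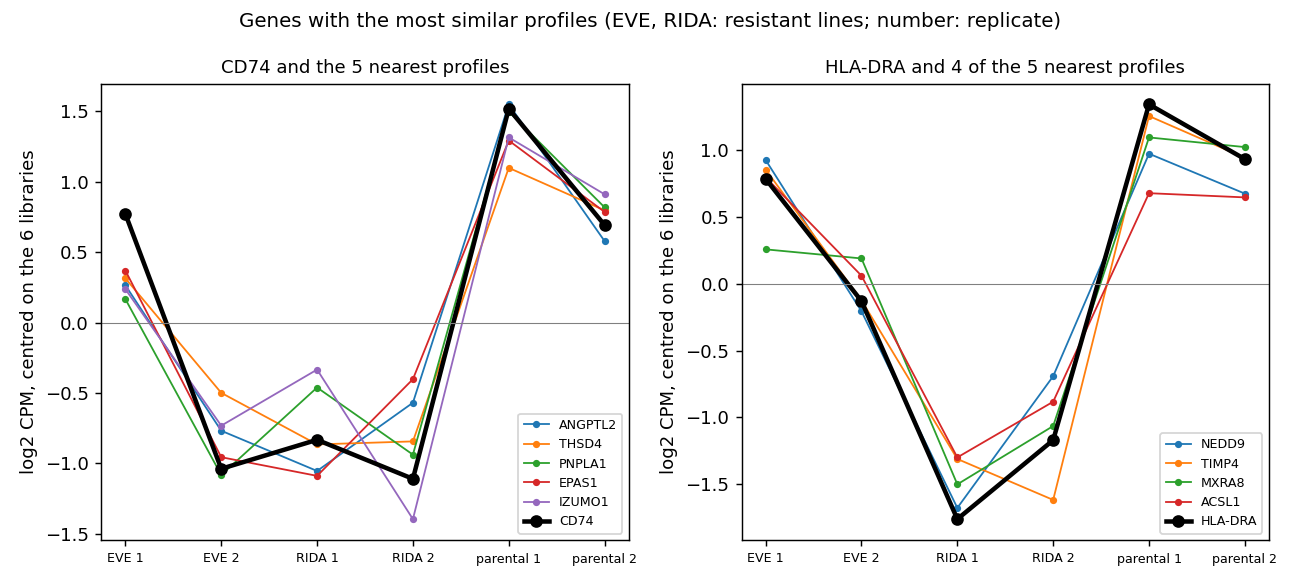
Profiles of CD74 and of HLA-DRA (black), of the 5 genes nearest to CD74 and of 4 of the 5 nearest to HLA-DRA, as log2 CPM centred on the 6 libraries (drawn with no prior count, unlike the distances), with everolimus-resistant (EVE) and ridaforolimus-resistant (RIDA) libraries left of the parental ones; lines join the values of 1 gene. HLA-DRA is lowest in both ridaforolimus libraries, at 0.534 and 0.804 CPM, while CD74 is as low in everolimus replicate 2 as in the ridaforolimus libraries.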

How the data were processed

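RNA of 6 libraries was sequenced after preparation with Illumina's TruSeq Stranded mRNA kit, per the labels' protocols. The values the authors deposited are raw counts, whole numbers of reads for each Ensembl ID and library, neither scaled nor pooled. Per the submitters' processing notes the tools were HTSeq 0.13.5, STAR 2.7.9a, DESeq2 and Trim Galore 0.6.6, in no stated order, on build GRCh38. How strand was set in counting, and which annotation was counted, is not given in the sources used here, so counts of overlapping genes and of similar HLA copies are uncertain. Symbols matched 62625 of 69292 IDs, and positions and exon overlaps come from GENCODE 29 (GRCh38).

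Counts were analysed with edgeR 4.0.16 in R 4.3.3: filterByExpr by group, TMM, glmQLFit and glmQLFTest on the 3 groups with all 6 libraries (3 residual degrees of freedom), two-sided, Benjamini-Hochberg adjusted over 21223 genes at 0.05. DESeq2 1.42.0 and limma 3.58.1 (voom) were alternatives, with other scalings, filters, samples in the fit and a replicate block. Distances between profiles used log2 CPM with a prior count of 2, and the plot of profiles used none. The fit was tested on simulated counts. Poisson intervals cover counting error only.

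All members, lists and tests were chosen with earlier results of these data known. Named genes were all 9 members, genes of the lists by value, the 5 nearest profiles to CD74 and HLA-DRA (mean of at least 1 CPM, symbol, outside class II), and genes within 500 kb of CIITA, CD74 and HLA-DRA that passed. A few genes that this rule covers are not reported here.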

Additional observations from a re-analysis of the deposited data

Results flagged for a closer look

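The marker genes ITGAX, LCP1 and GATA3 differed between the resistant lines by the direct test of ridaforolimus over everolimus (edgeR's quasi-likelihood test, adjusted over all genes). ITGAX had 4.80 and 13.7 CPM in ridaforolimus and 0.942 and 0.727 CPM in everolimus libraries, a log2 fold change of 3.46 ± 0.58 (adjusted p = 0.0461), with 1.76 and 1.13 CPM in parental libraries. LCP1 had 121 and 108 CPM in ridaforolimus and 22.7 and 37.5 CPM in everolimus libraries, a log2 fold change of 1.93 ± 0.27 (adjusted p = 0.0286). GATA3, a luminal transcription factor, had 0.915 and 0.95 CPM in ridaforolimus and 3.91 and 5.88 CPM in everolimus libraries, a log2 fold change of -2.38 ± 0.38 (adjusted p = 0.0403). DESeq2 called all 3 in this comparison, limma-voom called LCP1 alone, and with the replicate block or a fit to only the groups compared 0 of the 3 were called. Their part in the class II values was not tested.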

How the results depend on the processing

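The median of the class II members tested was below 0 in every comparison under every alternative run. That sign is no evidence about the set, since the members were chosen with such results known. With 7 members tested, the reported median was the value of 1 gene. It was HLA-DRA in the everolimus, HLA-DRB1 in the ridaforolimus and CIITA in the direct comparison. Leaving out 1 library gave medians of -1.27 to -0.37 in the everolimus, -2.22 to -1.66 in the ridaforolimus and -1.93 to -0.82 in the direct comparison. Of 306 member fold changes under alternatives, 7 had another sign than the value reported and 20 moved by more than 1 SD, all from leaving out a library of a resistant line.

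The counts of genes past the threshold (1, 68 and 158 in the everolimus, ridaforolimus and direct comparisons) depended on the settings. They were 493, 1195 and 1362 with no filter, 150, 574 and 657 with DESeq2, and 0, 127 and 0 in fits to only the groups compared. The first was also 0 with upper quartile scaling and with at least 1 CPM in 2 libraries. Leaving out 1 library gave 0 to 3, 1 to 276 and 19 to 123. The causes were not tested.

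With the replicate number as a block the counts were 0, 28 and 49. Nothing in the labels says that the numbers pair the samples, and differences between replicates correlated at 0.33 between everolimus and parental groups, -0.17 between ridaforolimus and parental and -0.19 between the lines. With the ridaforolimus numbers exchanged, a pairing added after the data were seen, 814 and 1044 genes passed in its 2 comparisons. At 2 to 11 counts per library, HLA-DMB, HLA-DRB1 and HLA-DRA in ridaforolimus cells are limited by depth.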
